A study of Mus musculus with 10 samples.

Results

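Rhomboid proteases, their inactive relatives the iRhoms, and the sheddases ADAM10 and ADAM17 were examined in lung tumors with and without targeting of the glucose transporter gene Slc2a1 (Glut1). The family comprised 10 of the 39017 genes counted: Rhbdl1, Rhbdl2, Rhbdl3, Rhbdd1, Rhbdd2, Parl, Rhbdf1, Rhbdf2, Adam10 and Adam17, each found by its gene symbol. The family was chosen because Rhbdl2 had been seen at a lower level in the Slc2a1-targeted tumors of these same 10 libraries and lies on the chromosome of Slc2a1. Since the genes were chosen on this contrast, by the counts of Rhbdl2 in both groups, the difference between the groups in them is given as a description. Counts of members called by the fit across all genes stand beside the share of all genes called, and nothing is read from them.

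RNA sequencing was performed on 5 KP and 5 KPG1 tumors from male C57BL/6 mice. KP mice develop lung adenocarcinoma once Cre recombinase switches on the engineered tumor-initiating alleles that both groups carry, and KPG1 mice were additionally homozygous for floxed Slc2a1. For the controls 1 label gives a heterozygous floxed allele and another gives WT, so KP here means the labelled control group. In both groups an adenovirus expressing Cre from the SPC promoter (Ad5SPC-Cre) was instilled into the trachea, which restricts recombination to cells making surfactant protein C, and tumors were macrodissected 18 weeks and 6 days later. RNA came from the fraction left after magnetic depletion of CD45+ immune cells, so stromal cells and cells that escaped recombination remained. Nothing in the labels says whether tumors came from separate animals, so p-values measure only the spread between these samples, which may be partly technical.

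Rhomboids are serine proteases that cut other proteins inside or next to the membrane. RHBDL2 acts at the plasma membrane, RHBDD1 (also called RHBDL4) in the endoplasmic reticulum and PARL in the inner mitochondrial membrane. The iRhoms encoded by Rhbdf1 and Rhbdf2 have lost protease activity and escort ADAM17 from the endoplasmic reticulum towards the cell surface, where ADAM17 and ADAM10 release the ectodomains of growth factors such as amphiregulin and HB-EGF, of TNF, and of many receptors and adhesion molecules. In lung epithelium these shed ligands feed the EGF receptor pathway.

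The promoter of Rhbdl2 is shown because it belongs to the only member whose groups did not overlap, and that of Adam17 because it belongs to the expressed member with the next largest difference. Both are RefSeq windows on GRCm38.p6 of 250 bases before to 50 bases after the annotated start, written 5′ to 3′ on the strand of the gene, with capitals marking the GC box GGGCGG (or its reverse complement).

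Rhbdl2, chr4:123787625-123787924, plus strand: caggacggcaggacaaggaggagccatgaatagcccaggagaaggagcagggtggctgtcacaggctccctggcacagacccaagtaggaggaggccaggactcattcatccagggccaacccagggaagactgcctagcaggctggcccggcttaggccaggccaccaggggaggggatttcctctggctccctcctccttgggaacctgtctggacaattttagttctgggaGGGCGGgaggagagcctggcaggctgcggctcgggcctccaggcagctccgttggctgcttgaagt
Adam17, chr12:21373583-21373882, minus strand: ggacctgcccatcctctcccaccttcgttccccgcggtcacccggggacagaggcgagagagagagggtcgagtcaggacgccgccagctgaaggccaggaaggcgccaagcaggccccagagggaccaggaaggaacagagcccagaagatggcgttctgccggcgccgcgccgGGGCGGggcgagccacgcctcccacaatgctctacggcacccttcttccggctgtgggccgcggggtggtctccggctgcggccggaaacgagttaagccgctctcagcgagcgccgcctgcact

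The windows differed in base composition. That of Rhbdl2 was 63.3% G or C with 6 CpG dinucleotides, and that of Adam17 was 70.0% G or C with 30. Each held 1 GC box, which 35.9% of 32544 RefSeq promoter windows of this length also held. Searched on both strands, neither held AP-1 (TGANTCA, in 7.79% of windows), the E-box CACGTG (7.17%), the HIF core ACGTG that lies inside that E-box (19.7%), the TATA box TATAAA (13.6%) or the CRE TGACGTCA (1.80%). RefSeq lists another start inside Rhbdl2, whose window (chr4:123813381-123813680) was 42.7% G or C and held 1 AP-1 match. A match or its absence describes the letters of a window only. Windows were found for 7 of the 10 members, and not for Rhbdl3, Rhbdf1 and Rhbdf2.

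Depth ranged from 32427029 to 49534284 counts per library, with 20886 to 22583 genes detected. Slc2a1, the targeted gene, checked the labels: its expression in CPM (counts as a rate of the library total, scaled by TMM factors) was 78.8, 127, 123, 109 and 71.7 in KP 1 to KP 5 and 47.3, 66.8, 40.8, 51.3 and 44.3 in KPG1 1 to KPG1 5. Every KPG1 library lay below every KP library (log2 fold change -1.01, SE 0.20, two-sided exact permutation p 0.00794 over 252 rearrangements of 5 against 5, the smallest this design allows). In limma across 16216 genes its adjusted p was 0.0675, and it was 0.022 without KP 5. Alveolar type 2 markers were abundant in both groups, with Sftpc between 19746 and 123870 TPM (the same kind of rate after division by exon length). Leukocyte markers were uneven. Ptprc stayed between 0.889 and 2.22 TPM, and Cd3e and Nkg7 were too low to test. Cd68 ran from 23.8 to 92.9 TPM and Tyrobp from 11.4 to 54.9 TPM. Across all tested genes, limma called 28 (0.173%) at an adjusted p under 0.05, 1877 (11.6%) had an unadjusted p under 0.05, and 456 (2.81%) did not overlap between the groups.

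Rhbdl2 was the member with the largest fitted difference. This plasma membrane rhomboid (ENSMUSG00000043333, chromosome 4, 123787874 to 123829904, plus strand, mm10) was measured at 3.40, 6.28, 5.42, 6.75 and 12.3 CPM in KP 1 to KP 5 and at 0.459, 1.11, 0.317, 1.11 and 0.488 CPM in KPG1 1 to KPG1 5. The highest KPG1 library thus stayed below the lowest KP library, and KP 5 was the highest of all. These values rested on 141 to 537 reads per library in KP and 14 to 43 in KPG1, so the gene was still detected in every KPG1 tumor. The mean was 6.84 ± 3.33 CPM in KP and 0.698 ± 0.384 CPM in KPG1 (SD, n = 5 each), 10.2% of the control level, and the fitted log2 fold change was -3.35 (SE 0.46). In such bulk libraries, fewer cells that express Rhbdl2 and less Rhbdl2 RNA per cell cannot be told apart.

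Of the 10 members, 9 had enough counts to be fitted, and Rhbdl1 did not. The count of members called was 1, Rhbdl2, against 0.173% of all tested genes, and 2 members, Rhbdl2 and Adam17, had an unadjusted p under 0.05 against 11.6%. The groups did not overlap in 1 member, against 2.81%. The call of Rhbdl2 was lost when KP 3, KP 4 or any 1 of the 5 KPG1 libraries was left out, while the log2 fold change stayed between -3.58 and -3.11 over all 10 omissions. The median log2 fold change of the 9 fitted members was 0.06, and that of all tested genes was 0.02.

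**Figure D1:**
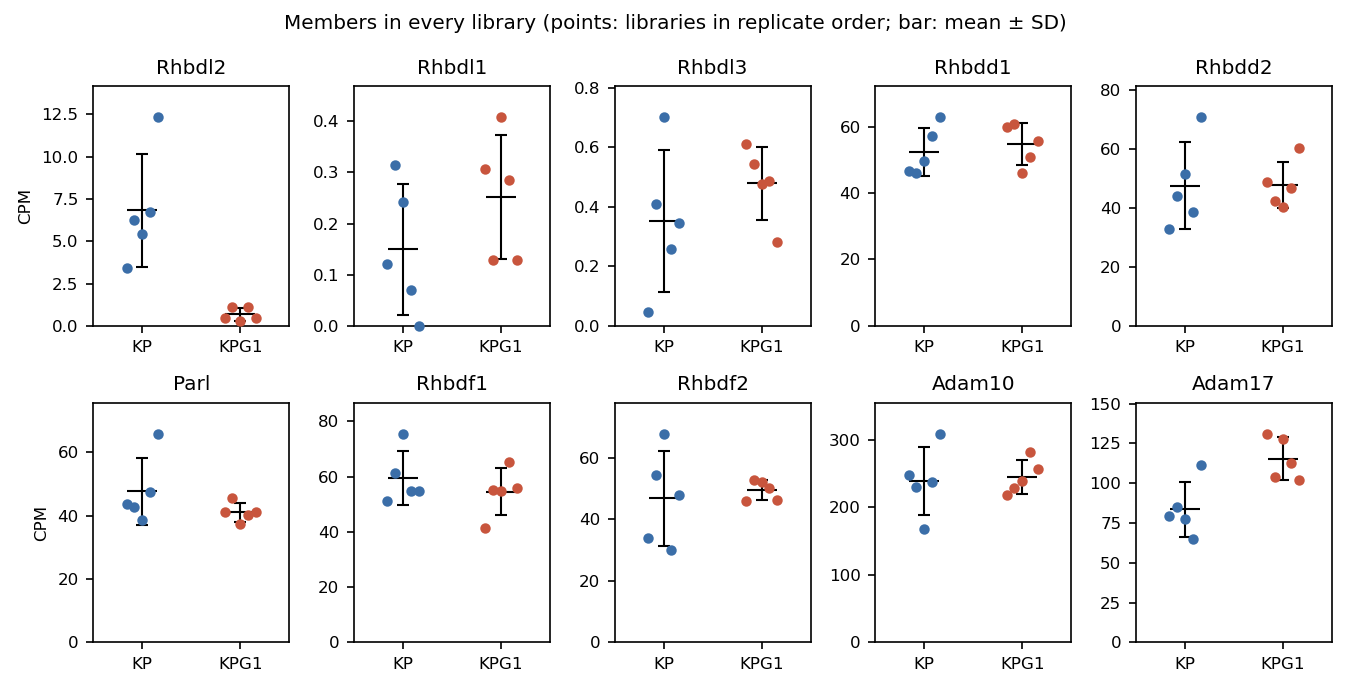
Expression of the 10 members in CPM (vertical axes, each from 0), with 1 point per library in replicate order and the mean ± SD (n = 5) in black. Rhbdl2 lies at 3.40 to 12.3 CPM in KP and 0.317 to 1.11 CPM in KPG1, whereas the groups overlap in the other 9 members.

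The close relatives Rhbdl1 and Rhbdl3 were near the limit of detection. Rhbdl1 (chromosome 17, 25834465 to 25837295, minus strand) had 5, 10, 9, 3 and 0 reads in KP 1 to KP 5 and 14, 5, 18, 10 and 5 reads in KPG1 1 to KPG1 5. It shares its position with Gm20683 on the same strand and Gm26694 on the other, so some of these few reads may belong to them. The groups overlapped and were not separable at this depth, and the count of 0 in KP 5 allows up to 3 reads. Rhbdl3 (chromosome 11, 80300912 to 80355955, plus strand) had 2, 13, 26, 11 and 15 reads in KP and 28, 21, 21, 17 and 11 reads in KPG1. In CPM its highest and its lowest library were both KP tumors (KP 3 at 0.701 and KP 1 at 0.0483), and the log2 fold change of 0.79 (SE 0.56) is imprecise.

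The rhomboids of internal membranes overlapped between the groups, with fitted differences from -0.19 to 0.06 on the log2 scale. Rhbdd1, the protease of the endoplasmic reticulum (chromosome 1, 82316452 to 82445366, plus strand), was measured at 46.7, 46.0, 49.7, 57.0 and 62.8 CPM in KP and 59.9, 60.9, 45.9, 51.0 and 55.7 CPM in KPG1, with a log2 fold change of 0.06 (SE 0.13). The ranges nearly coincided. Rhbdd2, a rhomboid-like protein (chromosome 5, 135632618 to 135646448, plus strand), ranged from 32.8 to 70.8 CPM in KP and from 40.5 to 60.3 CPM in KPG1, with a log2 fold change of 0.04 (SE 0.20). Parl, the mitochondrial protease (chromosome 16, 20279818 to 20302387, minus strand), was measured at 43.6, 42.6, 38.5, 47.5 and 65.8 CPM in KP and 41.1, 45.6, 37.3, 40.2 and 41.0 CPM in KPG1. KP 5 again stood highest, and the difference of -0.19 (SE 0.15) became -0.08 without it. Rhbdd1 and Rhbdd2 overlap small annotated transcripts on the opposite strand, and Rhbdd1 overlaps Gm19552 on its own strand.

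Neither iRhom separated the groups. Rhbdf1, which encodes iRhom1 (chromosome 11, 32209585 to 32222300, minus strand), was measured at 51.2, 61.1, 75.5, 54.8 and 54.6 CPM in KP and 41.3, 55.1, 54.8, 65.4 and 55.9 CPM in KPG1 (log2 fold change -0.13, SE 0.15). The lowest value was KPG1 1 and the highest was KP 3. Rhbdf2, which encodes iRhom2 (chromosome 11, 116598165 to 116627019, minus strand), was measured at 34.0, 54.5, 67.8, 30.0 and 48.0 CPM in KP and 45.8, 52.9, 52.0, 50.3 and 46.3 CPM in KPG1 (log2 fold change 0.14, SE 0.20). All 5 KPG1 values of Rhbdf2 fell inside the KP range. The spread of Rhbdf2 was 15.4 CPM (SD) in KP and 3.23 CPM in KPG1, and the difference in spread was not tested. The ratio of Rhbdf1 to Rhbdf2 in TPM was 1.31 ± 0.31 in KP and 1.07 ± 0.15 in KPG1 (SD, n = 5 each), from 1.08 to 1.78 and from 0.879 to 1.27.

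Of the sheddases, Adam17 had the higher mean in KPG1, and the means of Adam10 differed by less than its spread within a group. Adam17 (ENSMUSG00000052593, chromosome 12, 21323509 to 21373632, minus strand) was measured at 79.1, 85.1, 77.7, 64.8 and 111 CPM in KP 1 to KP 5 and at 131, 104, 127, 112 and 102 CPM in KPG1 1 to KPG1 5. Every KPG1 library exceeded KP 1 to KP 4, and the groups overlapped through KP 5 alone. The means were 83.6 ± 17.2 and 115 ± 13.4 CPM (SD, n = 5 each), with a log2 fold change of 0.48 (SE 0.15) that ranged from 0.39 to 0.57 when single libraries were left out. Part of the Adam17 locus overlaps Iah1 on the opposite strand, and the strand setting of the counting is not given in the sources used here. Adam10 (chromosome 9, 70678997 to 70780229, plus strand) was measured at 248, 231, 168, 238 and 309 CPM in KP and at 218, 229, 240, 283 and 257 CPM in KPG1. The KP values enclosed all KPG1 values, and the log2 fold change was 0.06 (SE 0.16).

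**Figure D2:**
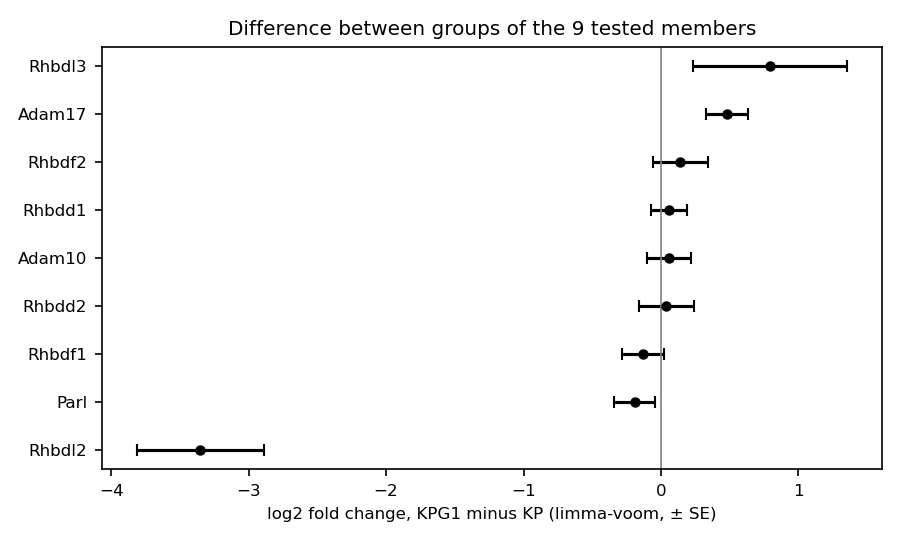
Fitted log2 fold change of KPG1 minus KP (horizontal axis) with its SE for the 9 members that had enough counts. Rhbdl2 stands at -3.35, Rhbdl3 at 0.79 with an SE of 0.56, Adam17 at 0.48, and the other 6 between -0.19 and 0.14.

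Levels were then compared between genes per transcript length, in TPM over the annotated exons. Adam10 was the most abundant member in every library, at 165 ± 34.0 TPM in KP and 170 ± 22.1 TPM in KPG1 (SD, n = 5 each), 45.0% and 45.2% of the summed mean level of the 10 members. In KP it was followed by Parl at 41.2, Adam17 at 39.3, Rhbdf1 at 36.9, Rhbdf2 at 29.7, Rhbdd1 at 25.4 and Rhbdd2 at 21.1 TPM, and the ranges of each neighbouring pair among these 6 overlapped. Rhbdl2 came next at 7.38 TPM, below Rhbdd2 in 5 of 5 KP libraries with no overlap, and Rhbdl1 and Rhbdl3 were last at 0.294 and 0.245 TPM with overlapping ranges. In KPG1 the order was Adam10 at 170, Adam17 at 54.9, Parl at 35.8, Rhbdf1 at 34.3, Rhbdf2 at 31.9, Rhbdd1 at 26.6, Rhbdd2 at 21.5, Rhbdl2 at 0.769, Rhbdl1 at 0.503 and Rhbdl3 at 0.344 TPM. Adam17 thus stood above Parl without overlap in KPG1 but in only 2 of 5 KP libraries. Rhbdl2 overlapped Rhbdl1 in KPG1, which it did not in KP.

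The summed level of the 10 members was 366 ± 41.1 TPM in KP and 377 ± 30.8 TPM in KPG1 (SD, n = 5 each). Rhbdl2 made up 1.99 ± 0.66% of this sum in KP and 0.204 ± 0.108% in KPG1. The ratio of Adam10 to Adam17 was 4.57, 3.95, 3.15, 5.35 and 4.04 in KP 1 to KP 5 and 2.42, 3.22, 2.74, 3.66 and 3.67 in KPG1 1 to KPG1 5. The ratio was lower on average in KPG1, at 3.14 ± 0.56 against 4.21 ± 0.81, and the groups overlapped through KP 3 alone.

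Members also varied among tumors of 1 group. After subtraction of each group mean of log2 CPM, Pearson's r over the 10 libraries was highest for Rhbdd1 with Parl at 0.79, followed by Rhbdl3 with Rhbdf2 at 0.73 and Parl with Adam10 at 0.71, and lowest for Rhbdl3 with Adam10 at -0.46. The iRhoms correlated with each other at 0.63, and with Adam17 at -0.28 for Rhbdf1 and 0.34 for Rhbdf2. Within the family, Rhbdl2 was most like Parl at 0.67 and Rhbdd1 at 0.60, and least like Adam17 at 0.12. Among 12876 genes above a mean log2 CPM of 1, those most like Rhbdl2 by this measure were the pseudogene Gm12191 at 0.95, Galnt12 and Steap4 at 0.92, and Clint1 and Trappc2 at 0.91. Their log2 fold changes lay between -0.26 for Gm12191 and 0.50 for Steap4, and the groups overlapped in each of the 5. By the same measure Parl ranked 906 and Rhbdd1 ranked 1481 among the 12876 genes. Rhbdl2, Parl and Rhbdd1 were each highest in KP 5. These correlations share the libraries and their depth, rest on few tumors and are descriptions only.

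Since Rhbdl2 starts 4.68 Mb from the start of the floxed gene on chromosome 4, its neighbourhood was examined. Within 10 Mb of Slc2a1, 194 other genes were tested and 0 were called by limma or by edgeR, and DESeq2 called 6. The share of all genes that DESeq2 called is not given here, so these 6 have no share beside them. An unadjusted p under 0.05 was seen for 23 of them (11.9%), against 11.6% of all genes, and 3 (1.55%) did not overlap between the groups, against 2.81%. Of the 194 genes, 129 were fitted higher and 65 lower in KPG1, while 8547 of all 16216 tested genes were fitted higher. Their median difference was 0.12 on the log2 scale, within a range of -2.05 to 1.02, while the median over all genes was 0.02. The difference of Rhbdl2 lay outside this range, but Rhbdl2 was chosen for its difference, so nothing is read from that.

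Of the genes flanking Rhbdl2, each overlapped between the groups. On the side facing Slc2a1, Akirin1, a nuclear protein 53.3 kb away, was measured at 32.5 ± 3.10 CPM in KP and 38.9 ± 6.30 CPM in KPG1 (log2 fold change 0.25, SE 0.14), and Ndufs5, a subunit of respiratory complex I 75.2 kb away, at 22.5 ± 4.12 and 21.2 ± 1.75 CPM (-0.06, SE 0.15). On the far side, the noncoding Gm26606 differed by -0.16 (SE 0.40) and D130007C19Rik by -0.20 (SE 0.59), both at about 1 CPM or less. The smallest p-values in the 10 Mb belonged to the kinase gene Plk3 (69.6 ± 28.0 against 24.8 ± 9.80 CPM, limma adjusted p 0.137), to Zc3h12a, which encodes the RNase Regnase-1 (16.8 ± 3.15 against 9.77 ± 1.65 CPM, limma adjusted p 0.153), and to Btbd19 (7.52 ± 1.36 against 4.43 ± 0.392 CPM, limma adjusted p 0.153).

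**Figure D3:**
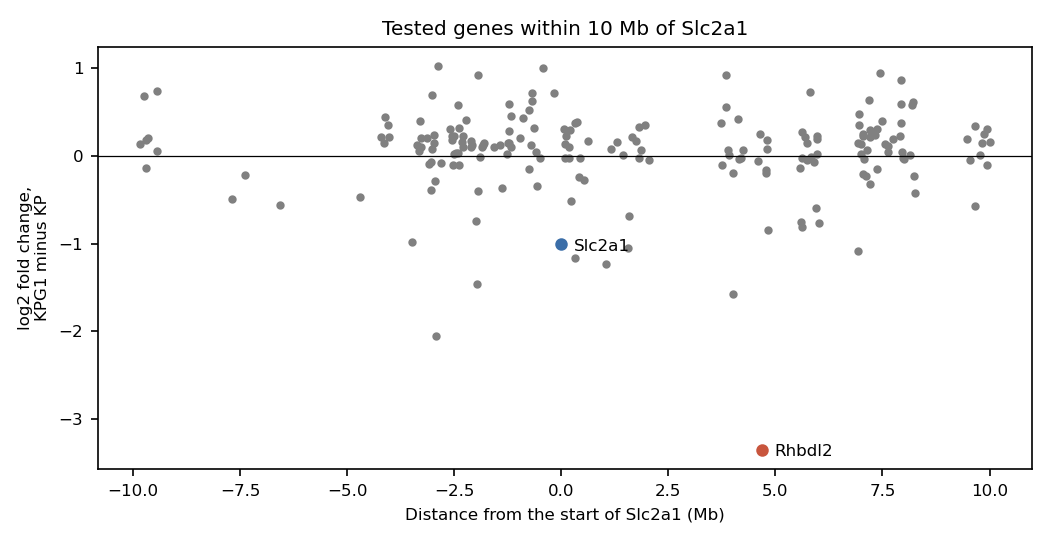
Log2 fold change of KPG1 minus KP (vertical axis) of the tested genes within 10 Mb of Slc2a1 against their distance from its start in Mb (horizontal axis). Slc2a1 is marked at -1.01 and Rhbdl2 at -3.35, 4.68 Mb away, and the 194 grey genes lie between -2.05 and 1.02.

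The comparison was extended to substrates, partners and relatives of these proteases in 9 lists holding 116 genes, of which 108 were tested. Limma called 3, each lower in KPG1: the ligands Areg, Tnf and Cxcl16. This is 3 of 108 against 0.173% of all genes, and 15 of the 108 had an unadjusted p under 0.05 against 11.6%, 10 of them fitted lower and 5 higher. The lists were chosen with earlier results of these data known, so these counts are a description and nothing is read from them. The groups did not overlap in 4 of the 108, against 2.81% of all tested genes. The median over the 108 genes was -0.02, against 0.02 for all genes. EdgeR called the same 3, and DESeq2 called 7, adding Hbegf, Ereg, Egfr and Axl, all lower in KPG1. The share of all genes that DESeq2 called is not given here. Its counts, in this and the other lists, therefore cannot be set against the 0.173% of limma. The sample numbers in the titles ran from 6 to 16 in KP and from 1 to 10 in KPG1, and with this number as a covariate limma called 0 of the 108 (adjusted p 0.299 for Areg, 0.0964 for Tnf and 0.357 for Cxcl16). What the number records is not stated.

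EGF family ligands, the growth factors that ADAM17 and ADAM10 release, had mostly lower fitted levels in KPG1. Of 9 tested (Nrg2 and Nrg3 were not), 1 fell and the other 8 did not pass in limma or edgeR, while DESeq2 also called Hbegf and Ereg lower. In limma 7 of the 9 were fitted lower, and the median was -0.37. Areg, which encodes amphiregulin, was measured at 276, 307, 297, 360 and 289 CPM in KP 1 to KP 5 and 167, 136, 174, 201 and 177 CPM in KPG1 1 to KPG1 5. The groups did not overlap, and Areg fell by 0.84 on the log2 scale (SE 0.13, limma adjusted p 0.0314). Leaving out any 1 library other than KP 5 gave Areg an adjusted p between 0.0522 and 0.105.

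Hbegf, which encodes HB-EGF, did not pass in limma although its groups did not overlap either, and DESeq2 gave it an adjusted p of 0.000286. It was measured at 372, 465, 370, 457 and 238 CPM in KP and 216, 90.7, 121, 130 and 202 CPM in KPG1 (log2 fold change -1.36, SE 0.26, limma adjusted p 0.0659). Ereg, the gene of epiregulin, ranged from 132 to 291 CPM in KP and from 73.5 to 140 CPM in KPG1 (-0.84, SE 0.24, limma adjusted p 0.234 and DESeq2 adjusted p 0.0277). Tgfa ranged from 54.6 to 93.5 CPM in KP and from 46.4 to 59.9 CPM in KPG1 (-0.37, SE 0.15, limma adjusted p 0.383). The summed level of the EGF family ligands, most of it Areg at 853 TPM in KP and 480 TPM in KPG1, ran from 1184 to 1592 TPM in KP and from 573 to 822 TPM in KPG1, so that these sums did not overlap.

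Of the ErbB receptors, which bind these ligands, 0 of 3 tested genes passed in limma or edgeR, DESeq2 called Egfr, and 0 had an unadjusted p under 0.05. Egfr was low and uneven in KP, at 10.2, 1.07, 6.42, 17.9 and 2.78 CPM, and even in KPG1, at 1.75 to 2.12 CPM (log2 fold change -1.47, SE 0.68, limma adjusted p 0.436). It overlaps the antisense gene Egfros. Erbb3 was abundant in both groups, with means of 322 and 274 CPM and a log2 fold change of -0.23 (SE 0.14), and Erbb2 had means of 101 and 104 CPM (0.05, SE 0.13).

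**Figure D4:**
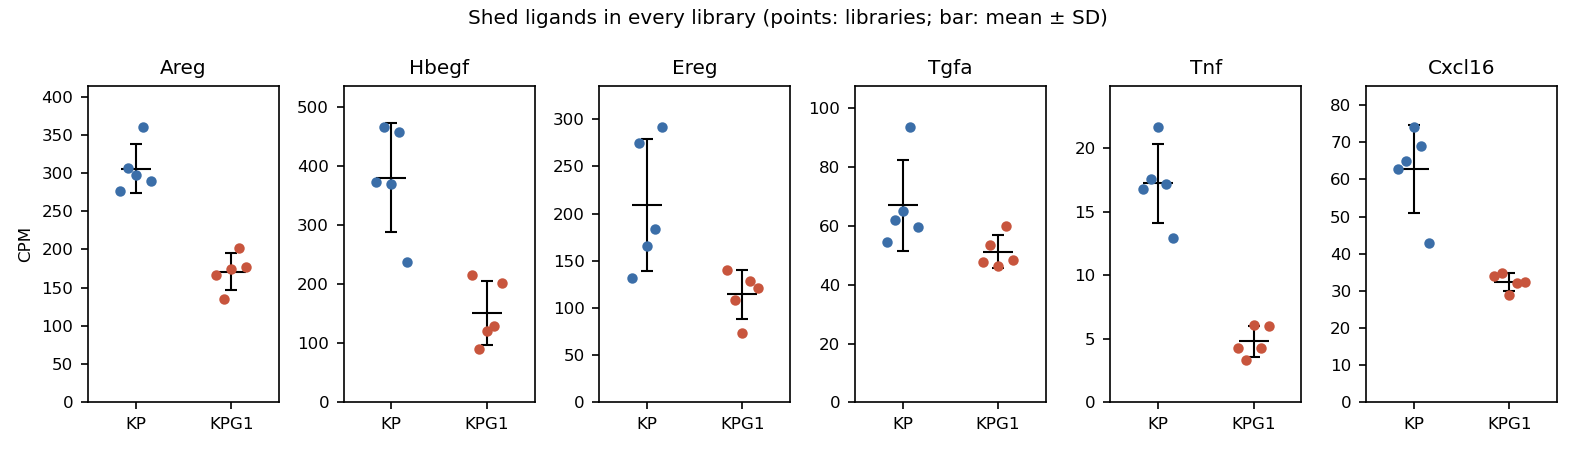
Expression in CPM (vertical axes, each from 0) of 6 genes of shed ligands, with 1 point per library and the mean ± SD (n = 5) in black. Areg, Hbegf, Tnf and Cxcl16 do not overlap between KP and KPG1, and Ereg and Tgfa overlap. Among all 108 tested list genes 4 do not overlap, against 2.81% of all tested genes.

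Among 31 tested genes of other ADAM10 and ADAM17 substrates, 2 fell, 0 rose, and the median was -0.04. Tnf, the cytokine from which the ADAM17 name TACE derives, was measured at 16.8, 17.6, 21.7, 17.2 and 12.9 CPM in KP and 4.28, 3.34, 6.09, 4.26 and 6.01 CPM in KPG1. It fell without overlap by 1.85 on the log2 scale (SE 0.21, limma adjusted p 0.0081), to 27.8% of the control mean, and its adjusted p was 0.0502 without KPG1 4. Cxcl16, a membrane-bound chemokine, was measured at 62.9, 65.1, 74.0, 69.0 and 43.0 CPM in KP and 33.9, 34.9, 28.8, 32.0 and 32.5 CPM in KPG1. It fell without overlap by 0.93 on the log2 scale (SE 0.15, limma adjusted p 0.043), and its adjusted p was between 0.0757 and 0.161 when any 1 library other than KP 5 was left out. Cxcl16 overlaps Zmynd15 on the opposite strand.

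The other 29 substrate genes did not pass in limma or edgeR, and DESeq2 called Axl (log2 fold change -1.57, adjusted p 0.022). The smallest p-values among them belonged to the proteoglycan gene Sdc4 (508 ± 74.8 CPM in KP and 388 ± 32.4 CPM in KPG1, limma adjusted p 0.287), the receptor gene Axl (55.2 ± 47.5 and 18.8 ± 4.27 CPM, limma adjusted p 0.357) and the prion protein gene Prnp (229 ± 92.2 and 348 ± 49.5 CPM, limma adjusted p 0.378). The high KP mean of Axl came largely from KP 4 at 137 CPM.

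Marker genes of other cells were examined beside these ligands. Of 14 tested leukocyte markers, 0 passed in limma or edgeR, 10 were fitted lower and 3 had an unadjusted p under 0.05, all lower: S100a9 (log2 fold change -1.98), S100a8 (-1.84) and Itgam (-1.04). DESeq2 called these 3 genes of neutrophils and other myeloid cells. The groups did not overlap in any of the 3, and S100a8 rested on 7 to 160 and S100a9 on 12 to 267 reads per library. Among all tested genes, 11.6% had an unadjusted p under 0.05 and 2.81% did not overlap. Ptprc itself was at 0.889 to 1.79 TPM in KP and 0.997 to 2.22 TPM in KPG1, and Cd3e and Nkg7 were too low to test. The summed level of the leukocyte list was 1346 to 9061 TPM in KP and 5365 to 15064 TPM in KPG1, nearly all of it Lyz2, which alveolar type 2 cells express as well. All 8 endothelial and all 8 fibroblast markers were fitted higher in KPG1, with medians of 0.32 and 0.49, 0 calls in limma and DESeq2, and 0 and 2 unadjusted p-values under 0.05, and their summed levels overlapped (154 to 533 against 265 to 726 TPM, and 62.0 to 156 against 87.9 to 156 TPM).

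Of 12 alveolar type 2 and epithelial markers 0 passed in limma and 2 in DESeq2, the keratin genes, and 9 were fitted higher and 3 lower in KPG1, with a median of 0.23. An unadjusted p under 0.05 was seen for Sftpc (log2 fold change 1.22) and Abca3 (0.97), both fitted higher, and for Krt18 (-0.87, limma adjusted p 0.0501) and Krt8 (-0.67), both fitted lower. The groups did not overlap in Abca3, Krt18 and Krt8, against 2.81% of all tested genes. The share of all tested genes with an unadjusted p under 0.05 was 11.6%. Of the 5 club cell markers 1 and of the 6 ciliated cell markers 1 had an unadjusted p under 0.05 and 0 passed in limma, Cyp2f2 at 2.11 and Foxj1 at -1.19. Directions were mixed in both lists. Club cell markers were fitted higher in 2 and lower in 3 (median -0.12), and ciliated cell markers higher in 2 and lower in 4 (median -0.23). DESeq2 called Cyp2f2 higher (1.70, adjusted p 0.0482). The part of cell composition in the levels of Rhbdl2, Areg, Tnf and Cxcl16 was not tested.

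Genes that mature, escort or inhibit the ADAM proteases did not pass, with 0 of 18 called by limma, edgeR and DESeq2, 3 at an unadjusted p under 0.05 and a median of -0.11. Tspan5, a tetraspanin that partners ADAM10, had means of 39.1 ± 11.2 CPM in KP and 25.6 ± 4.84 CPM in KPG1 (log2 fold change -0.60, SE 0.21). Furin, a proprotein convertase that removes the ADAM prodomain, had 180 ± 31.6 and 140 ± 10.1 CPM (-0.35, SE 0.13). Reck, a membrane inhibitor of metalloproteases, had 2.91 ± 0.907 and 4.93 ± 1.96 CPM (0.77, SE 0.32). Frmd8, which binds and stabilises the iRhoms, differed by -0.13, and Timp3, the inhibitor of ADAM17, by -0.08. Both were named after their values had been seen.

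Known or proposed substrates of RHBDL2 showed 0 calls among 9 genes in the 3 tools, 1 unadjusted p under 0.05 and a median of 0.07. Efnb3, encoding ephrin-B3, had 1.10 ± 0.352 CPM in KP and 1.79 ± 0.481 CPM in KPG1 (log2 fold change 0.73, SE 0.29). Cdcp1 had 110 ± 18.4 and 95.2 ± 14.8 CPM (-0.21, SE 0.15), and Egf had 5.99 ± 3.88 and 8.32 ± 3.70 CPM (0.58, SE 0.41).

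The 8 genes of the Parl list had 0 calls in the 3 tools and 0 unadjusted p-values under 0.05, and stayed between -0.12 and 0.14 on the log2 scale. Those with the smallest p were Clpb (0.14), Pgam5 (-0.12) and Diablo (0.08). The 6 other rhomboid superfamily genes also had 0 calls in the 3 tools and 0 unadjusted p-values under 0.05, with Derl2 at 0.25, Ubac2 at 0.18 and Derl3 at 0.28. Derl2 and Derl3 encode derlins, pseudoproteases of endoplasmic reticulum quality control.

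Of 8 other ADAM genes 0 were called by the 3 tools and 1 had an unadjusted p under 0.05, Adam19, at 168 ± 57.3 CPM in KP and 251 ± 42.8 CPM in KPG1 (log2 fold change 0.64, SE 0.23, limma adjusted p 0.332). Adam8 differed by -0.52 (SE 0.32) and Adam22 by 0.63 (SE 0.45), and KP 5 alone held 136 CPM of Adam22. Of 17 other membrane proteases 0 were called by the 3 tools and 0 had an unadjusted p under 0.05, with Zmpste24 at 0.35 (SE 0.16), the gamma-secretase subunit gene Psenen at -0.81 (SE 0.39) and Sppl2b at 0.36 (SE 0.22).

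**Figure D5:**
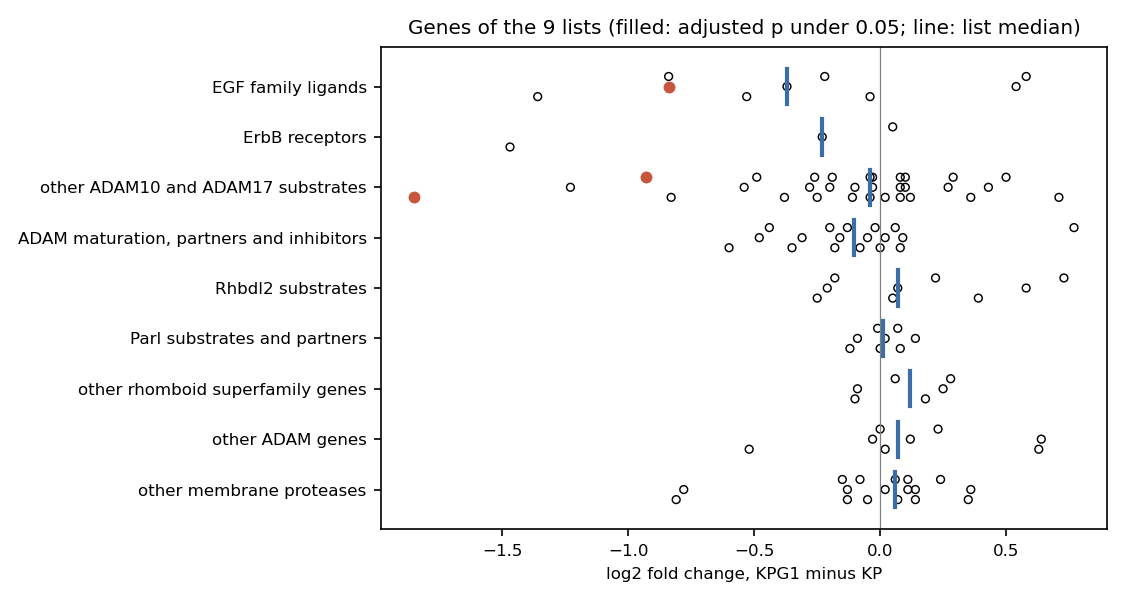
Log2 fold change of KPG1 minus KP (horizontal axis) of the 108 tested genes in the 9 lists, with 1 circle per gene, filled at an adjusted p under 0.05, and a blue line at the median of each list. The 3 filled circles are Areg at -0.84, Tnf at -1.85 and Cxcl16 at -0.93, and the list medians run from -0.37 to 0.12.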

How the data were processed

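RNA sequencing libraries of 10 tumors were prepared with a stranded mRNA kit. Per the submitters' processing notes, the authors used bcl2fastq 2.17, cutadapt 1.4.2, HISAT2 on mm10 and featureCounts 1.4.4. The annotation and strand setting are not given in the sources used here. The deposited values are raw counts per gene. They come singly for each library and in a combined table, and all 390170 values were equal between these forms. A deposited log2 table made by the authors with edgeR was not used.

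Genes were filtered with filterByExpr of edgeR 4.0.16, scaled with TMM factors and fitted with voom and limma 3.58.1 in R 4.3.3, with genotype as the only term, all 10 libraries and Benjamini-Hochberg adjustment over 16216 genes (threshold 0.05). The study filtered on TPM, which was run as an alternative. CPM used the TMM-scaled library totals. TPM was computed from the counts and exon lengths of GENCODE M21 on mm10, which held 37607 of 39017 gene IDs, and gene positions came from it. Promoters came from RefSeq on GRCm38.p6. The correlations used log2 CPM with a prior count of 2. The fits were tested on simulated data.

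The members and lists were chosen with earlier results of these data known. From each list every gene past the threshold and up to 3 others with the smallest p were named. From the neighbourhood of Slc2a1 the rule took the 2 nearest tested genes on each side of Rhbdl2 and up to 3 with the smallest p, and it took the 5 genes most correlated with Rhbdl2. Cell type markers were named after their values were seen. Of the lists, 1 symbol did not match the table. A count of 0 allows up to 3 reads, and this limit and the depth cover counting error only. Alternatives were edgeR's quasi-likelihood test, DESeq2 1.42.0, other size factors, other filters, library weights, a replicate block, the sample number as a covariate and each library left out. The engineered alleles that start the tumors are not reported here.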

Additional observations from a re-analysis of the deposited data

How the results depend on the processing

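The log2 fold change of Rhbdl2 ran from -3.95 to -3.05 over the 17 alternatives that tested it. Since Rhbdl2 was chosen on this contrast and its groups did not overlap, nothing is read from its constant sign. Of the other members, Rhbdl3, Rhbdd1, Rhbdf1, Parl and Adam17 kept their signs, whereas Rhbdd2 changed sign in 5, Adam10 in 2 and Rhbdf2 in 1 of 18. The number of members called lower went from 1 to 0 with a minimum mean TPM of 20, which left Rhbdl2 untested, and with the replicate block, and was 0 to 1 when single libraries were left out. Pathway genes called lower numbered 3, but 7 in DESeq2, 2 with no filter (Cxcl16 at an adjusted p of 0.0526), 0 with the replicate block, 0 with the sample number as a covariate and 0 to 4 without single libraries. Those called higher numbered 0 to 1 without single libraries. Neighbours of Slc2a1 called lower numbered 0, but 6 in DESeq2, 3 with library weights and 0 to 3 without single libraries. The adjusted p of Slc2a1 was 0.000255 in DESeq2, 0.0171 with library weights and 0.022 to 0.23 without single libraries. Parl moved from -0.19 to -0.42 with the sample number as a covariate. By CPM in place of TPM, 2 of the 10 members kept their rank in KP. The cause of these shifts was not tested.

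The replicate numbers did not pair the samples, since deviations of same-numbered libraries correlated between -0.161 and 0.076. With the replicate block the adjusted p was 0.154 for Areg, 0.092 for Tnf, 0.194 for Cxcl16 and 0.176 for Slc2a1.

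The low counts of Rhbdl1, Rhbdl3 and, in KPG1, Rhbdl2 limit their precision, and 5 libraries a group limit all tests. Whether the controls were heterozygous or wild type for Slc2a1 cannot be told from the labels.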
